A study of Homo sapiens with 12 samples.

Results

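The integrin and laminin genes were followed in 4 cell lines of synovial sarcoma (SS) upon treatment with ZSTK474, a pan-PI3K inhibitor. A gene was a member when a probe set annotated with exactly 1 gene symbol named it as an integrin alpha, beta or beta-like subunit or as a laminin alpha, beta or gamma chain. This gave 36 of the 19775 genes that such probe sets name: 18 integrin alpha subunits, 7 beta subunits, the beta-like gene *ITGBL1* and 10 laminin chains, measured by 100 probe sets. Some further genes of these families were not analysed here. The rule used names and no measured value.

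RNA was hybridised to Affymetrix U133 Plus GeneChips 24 h after the addition of 0 (control), 0.3 and 3 µM ZSTK474. The labels name a vehicle in the treatment protocol and describe the 0 µM cells as non-treated, so whether these received vehicle is not settled. The study's table of cell lines gives the fusion SS18-SSX2 for SYO-1 and Fuji and SS18-SSX1 for Aska-SS and Yamato-SS, and all lines were cultured in the same serum-containing medium. Each of the 12 arrays holds 1 cell line at 1 dose. The 4 cell lines therefore served as the replicates of each dose, repeated cultures of a line were not measured, and whether the 3 cultures of a line were set up separately is not stated.

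Integrins are heterodimers of an alpha and a beta subunit that span the plasma membrane and bind the matrix outside the cell and, through adaptor proteins, actin inside it. Laminins are trimers of an alpha, a beta and a gamma chain that are secreted as cross-shaped molecules, form the sheet of basement membranes and are bound by several integrins. Bound integrins activate focal adhesion kinase and, through it, PI3K, the target of ZSTK474. In SS, a tumor that can form gland-like epithelial structures, laminin is found around these structures.

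All values below are log2 of the quantile-normalized MAS5 signal, a difference of 1 being a 2-fold change. Signals under the 20th percentile of the table were set to it, which puts the floor at 3.60. Changes were tested with limma over the 12132 genes whose mean signal lay above the median of all probe sets, with a block for the cell line and Benjamini-Hochberg adjustment over all of them (passed: adjusted p under 0.05). Of the 36 members, 21 lay above that filter: 11 integrin alpha subunits, the beta subunits *ITGB1* and *ITGB5*, and 8 laminin chains. Marker genes matched the labelled cells. All 9 annotated SS markers passed the filter, as did 12132 of all 19775 genes. *TLE1*, a corepressor used to diagnose SS, had 12.8 to 14.6, and the mesenchymal filament gene *VIM* had 14.92 to 15.15. The SS markers *NKX2-2* and *FGF9* were weaker in some or all arrays, with 3.60 to 10.49 and 6.02 to 7.66. Of the annotated markers of other cells, 9 of 10 mesenchymal, 1 of 10 leukocyte, 2 of 10 epithelial, 2 of 8 endothelial and 2 of 5 platelet genes lay above the filter. For beta actin, a control with probe sets near each end of the transcript, the 3′ signal exceeded the 5′ signal by 0.24 to 0.75 at 3 µM and 0.04 to 0.16 at 0 µM on the log2 scale. The part of this shift in the results below was not tested.

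To determine which members responded to the PI3K inhibitor, 3 µM was compared with 0 µM. The laminin chains *LAMB1*, *LAMB2*, *LAMC1* and *LAMA4* and the integrin subunit *ITGAV* rose, the laminin chain *LAMA1* and the integrin subunit *ITGAE* fell, and 14 members did not pass the test. *LAMB1* and *LAMB2* rose by 2.03-fold and 2.04-fold, *LAMC1* by 1.44-fold, *LAMA4* by 1.41-fold and *ITGAV* by 1.37-fold, whereas *ITGAE* and *LAMA1* had 0.521 and 0.497 times the signal at 0 µM. Over all genes tested, 43.7% passed in this comparison, 22.6% higher and 21.1% lower, and the 7 called members are 33.3% of the 21. In 7 of the 21 members the 4 lines moved the same way, as they did in 49.4% of all genes, and both shares of members are below those of all genes. By class, 4 laminin chains rose and 1 fell among 8 (median change 0.41), 1 integrin alpha subunit rose and 1 fell among 11 (median -0.00), and neither of the 2 beta subunits passed. The median change was 0.14 over the 21 members and 0.01 over all genes.

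At 0.3 µM against 0 µM, *LAMB1*, *LAMB2*, *LAMC1* and *LAMA4* rose and *ITGAE* fell, 5 of 21 members (23.8%), while 7.92% of all genes passed (4.57% higher, 3.35% lower). Between 3 µM and 0.3 µM, *LAMB1* and *LAMB2* rose and *ITGAE* fell further, 3 of 21 (14.3%), while 15.3% of all genes passed (7.25% higher, 8.09% lower). The comparisons with 0 µM share the control arrays, so their calls are not independent of each other. The calls at 0.3 µM were mostly lost with a line left out, as were the calls over all genes. Without Aska-SS 0 members and 0.00828% of all genes passed, and without Fuji 0 members and 0.629%. Of the members, *LAMB1* alone passed without SYO-1 (2.53% of all genes) and *LAMB2* alone without Yamato-SS (2.99%). Between 3 and 0.3 µM, 0 members and 8.78% of all genes passed without Yamato-SS, and 1 member and 4.89% without SYO-1.

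**Figure D1:**
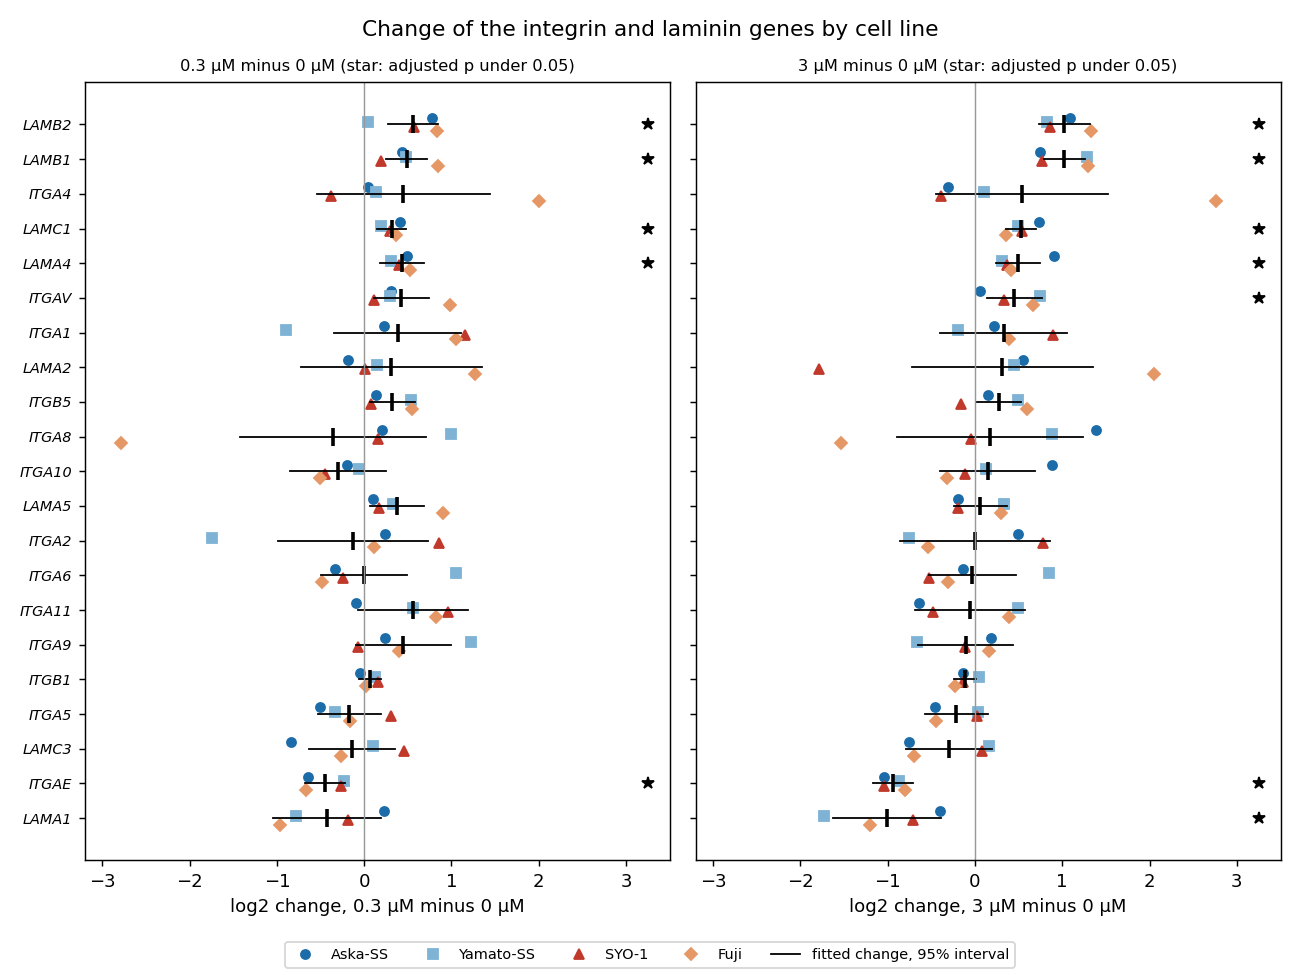
Log2 change of the 21 members above the filter, at 0.3 µM minus 0 µM (left) and 3 µM minus 0 µM (right), with 1 symbol per cell line, the fitted change as a black bar, its 95% interval as a line and a star where the adjusted p was under 0.05. At 3 µM the 7 starred genes are those whose 4 cell lines all lie on the same side of 0.

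The beta chains showed the largest rises of the family. *LAMB1* encodes the beta chain of the laminins of embryonic and many vascular basement membranes. Its log2 signal at 0, 0.3 and 3 µM was 12.54, 12.98 and 13.29 in Aska-SS, 12.67, 13.15 and 13.95 in Yamato-SS, 11.82, 12.01 and 12.59 in SYO-1, and 12.40, 13.24 and 13.70 in Fuji. Each line went up at each dose step, and the doses overlapped only because SYO-1 was low throughout: its signal at 3 µM lay below that of Yamato-SS at 0 µM. The mean was 13.38 ± 0.60 at 3 µM and 12.36 ± 0.38 at 0 µM (SD, n = 4 cell lines), a difference of 1.02 on the log2 scale (standard error 0.11, limma adjusted p = 3.09e-05). A second probe set of *LAMB1* changed by 1.13 and was higher in 4 of 4 lines.

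*LAMB2* encodes the beta chain that predominates at neuromuscular junctions and in the glomerular basement membrane. The signal at 0, 0.3 and 3 µM was 10.15, 10.92 and 11.24 in Aska-SS, 8.55, 8.60 and 9.38 in Yamato-SS, 8.28, 8.85 and 9.14 in SYO-1, and 10.20, 11.03 and 11.52 in Fuji. Aska-SS and Fuji were high and Yamato-SS and SYO-1 low, and every line moved up at both steps. The change at 3 µM was 1.03 (standard error 0.13, limma adjusted p = 0.0001), of which 0.56 was seen at 0.3 µM (adjusted p = 0.0288) and 0.47 between 0.3 and 3 µM (adjusted p = 0.0340). The ranges at 3 and 0 µM overlapped, as they did for every called member but *ITGAE*.

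*LAMC1* encodes the gamma chain that most laminin trimers contain. At 0, 0.3 and 3 µM it had 12.19, 12.60 and 12.93 in Aska-SS, 11.66, 11.85 and 12.15 in Yamato-SS, 11.31, 11.61 and 11.85 in SYO-1, and 12.86, 13.23 and 13.22 in Fuji. The lines kept one order at all 3 doses, with Fuji highest and SYO-1 lowest. The change was 0.53 at 3 µM (standard error 0.08, limma adjusted p = 0.00023) and 0.32 at 0.3 µM (adjusted p = 0.0325). Between 0.3 and 3 µM it was 0.21, which did not pass (adjusted p = 0.0840). A second, dimmer probe set gave 0.19 and was higher in 4 of 4 lines.

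The alpha chains did not move together. *LAMA4*, the alpha chain of laminins in vessel walls, muscle and fat, had 11.47, 11.96 and 12.38 at 0, 0.3 and 3 µM in Aska-SS, 8.49, 8.80 and 8.80 in Yamato-SS, 6.97, 7.37 and 7.34 in SYO-1, and 11.23, 11.76 and 11.65 in Fuji. It rose at 3 µM by 0.50 (standard error 0.12, limma adjusted p = 0.0043) and at 0.3 µM by 0.43 (adjusted p = 0.0435), and 3 of 4 lines did not go up further between 0.3 and 3 µM (change 0.07, adjusted p = 0.737). Its call was lost without Aska-SS (change 0.36, adjusted p = 0.0509) and with the mean over its probe sets (0.22, adjusted p = 0.173), since 2 other probe sets gave 0.26 and -0.10.

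*LAMA1*, the alpha chain of the first laminin made in the embryo, moved the other way. It had 4.64, 4.87 and 4.24 at 0, 0.3 and 3 µM in Aska-SS, 7.75, 6.96 and 6.02 in Yamato-SS, 8.89, 8.71 and 8.18 in SYO-1, and 6.44, 5.48 and 5.24 in Fuji. SYO-1 held the highest signal and Aska-SS was near the floor, and all 4 lines were lower at 3 µM. It fell at 3 µM, with a change of -1.01 (standard error 0.28, limma adjusted p = 0.0126), and the change at 0.3 µM was -0.42 (adjusted p = 0.368). Without Yamato-SS the change was -0.77 (adjusted p = 0.0956), and without SYO-1 the gene lay below the filter.

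The remaining laminin chains did not pass at 3 µM. *LAMA5*, the alpha chain widely used in adult epithelial basement membranes, changed by 0.06 (95% interval -0.24 to 0.37), with 10.36 to 10.84 in Aska-SS and Fuji and 8.75 to 8.94 in SYO-1 and Yamato-SS at 3 µM. *LAMA2*, the muscle alpha chain, changed by 0.32 (interval -0.72 to 1.35), with a change of 2.05 in Fuji and -1.79 in SYO-1. These changes ran between dim signals, from 4.37 to 6.42 in Fuji and from 5.96 to 4.18 in SYO-1. Other *LAMA2* probe sets above the filter changed by 0.44 and 0.34. *LAMA2* passed when SYO-1 was left out and with the floor at the 40th percentile. *LAMC3* changed by -0.30 (adjusted p = 0.308). Of the chains below the filter, *LAMB3*, a chain of the laminin of epidermal anchoring filaments, was measured in 1 line: it had 9.74, 9.52 and 9.67 at 0, 0.3 and 3 µM in Aska-SS and at most 4.07 in the 9 arrays of the other lines. *LAMB4* was at most 4.78 in all 12 arrays.

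**Figure D2:**
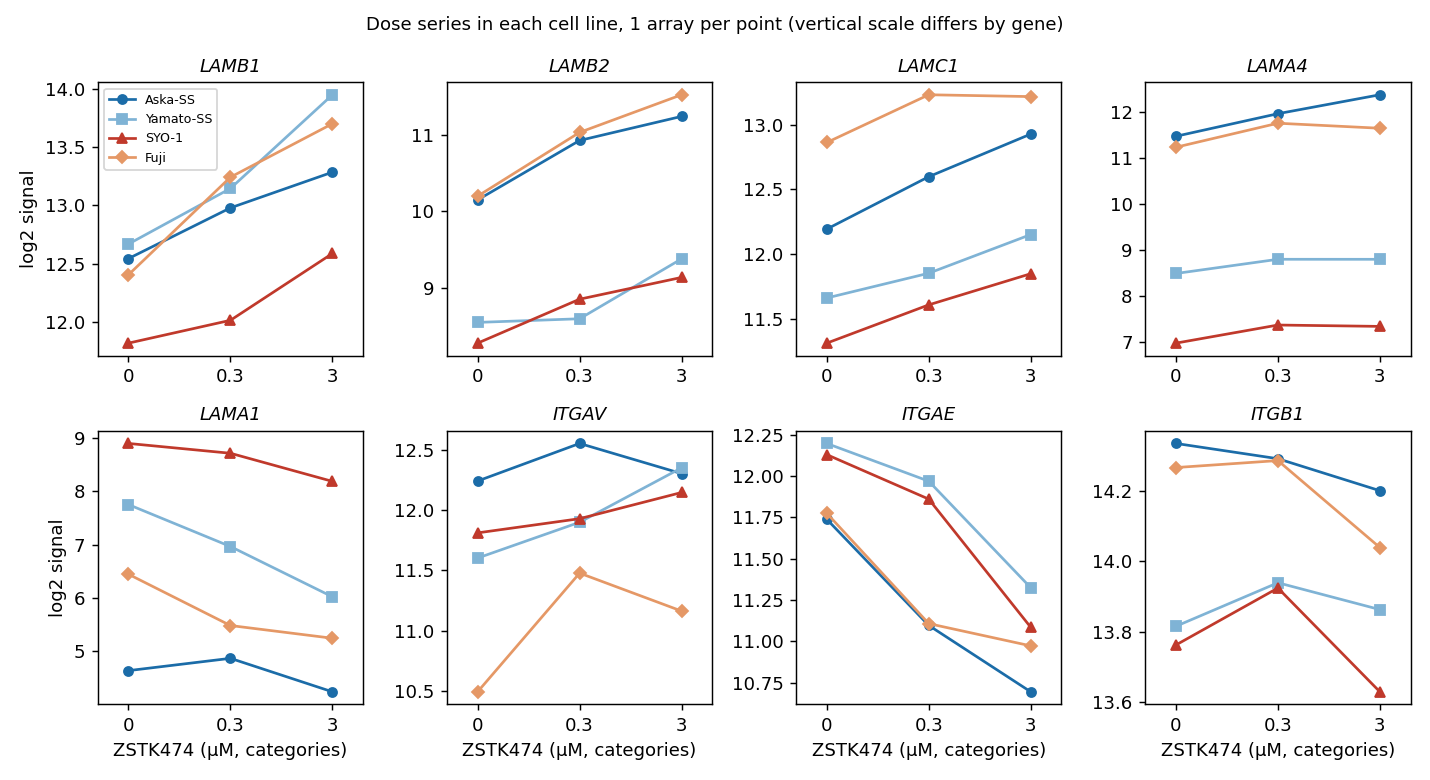
Log2 signal of 8 members at 0, 0.3 and 3 µM ZSTK474, 1 array per point and 1 line per cell line; doses are spaced as categories and the vertical scale differs between genes. *LAMB1* and *LAMB2* go up and *ITGAE* goes down at both steps in all 4 cell lines, while *ITGB1* stays between 13.63 and 14.34.

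The promoters of the beta and gamma chains that rose, and of the integrin subunit that fell, are shown as examples. The other called members with a window, *LAMA4* and *ITGAV*, rose and hold no GGGCGG, so the motif does not separate the members by direction. Each sequence is the 250 bases before the start of the gene, from RefSeq (GRCh38.p14), on the strand of the gene, and capitals mark GGGCGG on either strand, the motif of the Sp1 factors. The windows are chr3:49133051-49133300 (minus strand) for *LAMB2*, chr7:108003162-108003411 (minus) for *LAMB1*, chr1:183023170-183023419 (plus) for *LAMC1* and chr17:3801189-3801438 (minus) for *ITGAE*.
LAMB2: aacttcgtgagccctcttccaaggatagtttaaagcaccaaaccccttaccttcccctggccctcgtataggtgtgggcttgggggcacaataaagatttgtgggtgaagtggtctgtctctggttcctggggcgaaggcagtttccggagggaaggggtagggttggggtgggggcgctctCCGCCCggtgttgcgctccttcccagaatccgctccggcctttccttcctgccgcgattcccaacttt
LAMB1: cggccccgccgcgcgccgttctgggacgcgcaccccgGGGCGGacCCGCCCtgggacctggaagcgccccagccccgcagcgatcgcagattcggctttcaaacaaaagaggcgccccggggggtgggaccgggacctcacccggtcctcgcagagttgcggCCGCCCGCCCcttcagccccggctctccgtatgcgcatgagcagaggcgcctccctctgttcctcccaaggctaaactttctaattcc
LAMC1: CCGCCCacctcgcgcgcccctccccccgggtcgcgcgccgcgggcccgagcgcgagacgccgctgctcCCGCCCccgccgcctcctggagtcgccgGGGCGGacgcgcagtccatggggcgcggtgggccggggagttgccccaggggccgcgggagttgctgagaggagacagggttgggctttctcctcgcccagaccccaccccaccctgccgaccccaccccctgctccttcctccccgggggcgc
ITGAE: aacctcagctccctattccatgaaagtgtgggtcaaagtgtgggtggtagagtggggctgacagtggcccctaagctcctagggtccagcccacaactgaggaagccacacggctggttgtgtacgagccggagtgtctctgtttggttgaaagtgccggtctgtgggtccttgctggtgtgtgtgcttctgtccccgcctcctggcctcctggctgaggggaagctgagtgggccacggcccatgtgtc
The *LAMC1* and *LAMB1* windows are GC-rich, with 79.6% and 70.4% G and C and 32 and 28 CpG dinucleotides, against 58.4% and 12 for *LAMB2*, and the *ITGAE* window holds 6 CpG. The medians over 27305 promoters were 58.0% and 11. GGGCGG occurred 4 times in *LAMB1*, 3 times in *LAMC1*, once in *LAMB2* and not in *ITGAE*. A window was found for 25 of the 36 members, and 18 of these lay above the filter. GGGCGG was in 9 of these 18 and in 42.3% of all promoters. The motif GTAAACA of the FOXO factors, which Akt holds in the cytoplasm, was in 0 of these 18 windows (2.98% of all promoters, either strand), TGANTCA of AP-1 in 0 (6.6%), GGAATG of the TEAD factors in 4 (11.9%), and TATAAA in 1 (11.1%). These are matches of letters in a short window and show no binding.

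Among the integrins above the filter, *ITGAE* showed the largest change. It encodes the alpha E subunit, which pairs with beta 7 on intraepithelial lymphocytes and binds E-cadherin. The signal at 0, 0.3 and 3 µM was 11.74, 11.10 and 10.70 in Aska-SS, 12.20, 11.97 and 11.32 in Yamato-SS, 12.13, 11.86 and 11.09 in SYO-1, and 11.77, 11.11 and 10.97 in Fuji. The lines lay close together, and every array at 3 µM was below every array at 0 µM, a separation seen for 1 of 21 members and for 11.3% of all genes. The mean was 11.02 ± 0.26 at 3 µM and 11.96 ± 0.24 at 0 µM (SD, n = 4 cell lines), a change of -0.94 (standard error 0.10, limma adjusted p = 4.01e-05). The mean step was -0.45 at 0.3 µM (limma adjusted p = 0.0271) and -0.49 between 0.3 and 3 µM (limma adjusted p = 0.0107). In SYO-1 the steps were -0.27 and -0.77 and in Yamato-SS -0.23 and -0.64, whereas in Fuji they were -0.67 and -0.13 and in Aska-SS -0.64 and -0.40. Each of these steps compares single arrays, so a difference between the lines cannot be told from array noise and was not tested.

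The beta subunit that *ITGAE* pairs with, *ITGB7*, was at the floor in 9 of 12 arrays. The leukocyte marker *CD14* was at the floor in all 12 arrays and *PTPRC*, which encodes CD45, was at most 5.17. Other leukocyte markers with means below the filter reached more, 7.82 for *CD3E*, 7.01 for *CSF1R*, 6.39 for *CD3D* and 6.25 for *MS4A1*. The summed leukocyte list was 8.09 to 8.98 at 3 µM and 9.52 to 10.24 at 0 µM. This list was summed on the linear scale, so its brightest genes weigh most, and its fall was not split by gene. Of its genes 1 lay above the filter, the actin regulator *CORO1A*, which had 5.79 to 9.71 over the 12 arrays and fell by 2.12. The part of these genes in the fall of *ITGAE* was not tested. Overlaps in the annotation were listed only for genes above the filter, and 2 such genes overlap *ITGAE*. *HASPIN*, which encodes a mitotic histone kinase, lies within it, and its own probe set changed by -1.01 at 3 µM (standard error 0.29, limma adjusted p = 0.0131). *P2RX5*, which encodes an ATP-gated channel, changed by -0.45 (adjusted p = 0.444). Whether the *ITGAE* probe set also reads RNA of these genes was not tested.

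*ITGAV* encodes the alpha V subunit of receptors for vitronectin, fibronectin and latent TGF-beta. At 0, 0.3 and 3 µM it had 12.24, 12.55 and 12.30 in Aska-SS, 11.60, 11.90 and 12.35 in Yamato-SS, 11.81, 11.93 and 12.15 in SYO-1, and 10.49, 11.48 and 11.16 in Fuji. Fuji and Yamato-SS showed most of the change, and Aska-SS at 3 µM was 0.06 above its own level at 0 µM. The change at 3 µM was 0.45 (standard error 0.14, limma adjusted p = 0.0217), and it was lost without Yamato-SS (0.35, adjusted p = 0.0947) and with array weights (0.37, adjusted p = 0.0904). Of the beta subunits that pair with alpha V, *ITGB5* changed by 0.27 (standard error 0.12, adjusted p = 0.0858) and *ITGB3* and *ITGB8* lay below the filter. Other *ITGB5* probe sets above the filter changed by 0.31, 0.62 and -0.28, and *ITGB5* passed when SYO-1 was left out.

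*ITGB1* encodes the beta 1 subunit, the common partner of most alpha subunits measured here. At 0, 0.3 and 3 µM it had 14.34, 14.29 and 14.20 in Aska-SS, 13.82, 13.94 and 13.86 in Yamato-SS, 13.76, 13.92 and 13.63 in SYO-1, and 14.27, 14.29 and 14.04 in Fuji. All 12 arrays lay within 0.71 of each other. The change at 3 µM was -0.11 (standard error 0.06, 95% interval -0.24 to 0.02, limma adjusted p = 0.1475). For this probe set a change larger than 0.24 in either direction lies outside the interval. Other *ITGB1* probe sets above the filter changed by -0.18, -0.24 and 0.03. Between 0.3 and 3 µM all 4 lines went down, by -0.18 in the fit, which did not pass (limma adjusted p = 0.0642) but passed with array weights.

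Several alpha subunits differed between the cell lines more than between the doses, and with 1 array per line and dose these differences are a description with no test. The difference between the highest and the lowest line, each averaged over its 3 doses, was 0.42 (*ITGA5*) to 7.40 (*ITGA9*) over the 21 members. The filter on the mean over all arrays favors large line differences: *ITGA1*, *ITGA2* and *ITGA4* passed it only through the 1 line in which they were high, and *LAMA1* did not pass without SYO-1, so no share of members with a large difference is read here. *ITGAE* alone had a line difference (0.65) smaller in size than its change at 3 µM (-0.94). Over all genes above the same filter the line difference was the larger in 86%, and no share of members is set against it.

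The subunits of the collagen receptors stood out in Aska-SS. *ITGA1*, which pairs with beta 1 to bind collagen IV, had 11.03, 11.25 and 11.25 at 0, 0.3 and 3 µM in Aska-SS, 6.55, 5.65 and 6.35 in Yamato-SS, 3.60, 4.76 and 4.50 in SYO-1, and 3.60, 4.65 and 3.98 in Fuji. *ITGA2*, which binds fibrillar collagen, had 10.28, 10.52 and 10.78 in Aska-SS, 5.34, 3.60 and 4.58 in Yamato-SS, 3.60, 4.46 and 4.38 in SYO-1, and 6.01, 6.12 and 5.47 in Fuji. Both genes were thus high in 1 line at every dose and at or near the floor in others. The other collagen-binding subunits varied less: *ITGA10* and *ITGA11* spanned 6.21 to 7.92 and 4.83 to 7.75 over the 12 arrays. None of the 4 passed at 3 µM, although a second *ITGA2* probe set was lower in 4 of 4 lines (-0.81) where the first changed by -0.00.

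*ITGA4* and *ITGA9*, related subunits that bind VCAM1, fibronectin or tenascin, were high in different lines. *ITGA4* had 10.17, 10.30 and 10.27 at 0, 0.3 and 3 µM in Yamato-SS, 6.36, 6.40 and 6.05 in Aska-SS, 3.98, 3.60 and 3.60 in SYO-1, and 3.60, 5.60 and 6.35 in Fuji. *ITGA9* had 4.26, 5.48 and 3.60 in Yamato-SS, 10.43, 10.67 and 10.62 in Aska-SS, 10.53, 10.47 and 10.42 in SYO-1, and 11.66, 12.06 and 11.82 in Fuji. Yamato-SS was therefore the highest line for *ITGA4* and the lowest for *ITGA9*, at each dose. Fuji alone showed a large change of *ITGA4* at 3 µM (2.76, from the floor), and over the 4 lines the change was 0.54 (standard error 0.45, limma adjusted p = 0.364).

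The laminin receptors also differed by line. *ITGA6*, the alpha subunit of a main laminin receptor, had 11.30, 10.97 and 11.17 at 0, 0.3 and 3 µM in Aska-SS, 6.29, 7.33 and 7.14 in Yamato-SS, 7.38, 7.15 and 6.86 in SYO-1, and 9.61, 9.13 and 9.31 in Fuji. Aska-SS and Fuji, the lines high in *ITGA6*, were also the 2 highest lines for 4 of the 8 laminin chains above the filter, *LAMA4*, *LAMA5*, *LAMB2* and *LAMC1*. The other 4 had another order: Yamato-SS was highest for *LAMB1* and *LAMA2* and SYO-1 for *LAMA1* and *LAMC3*. Aska-SS and Fuji were picked from the values of *ITGA6*, and the share of all genes with these lines highest was not counted. *ITGA6* changed by -0.03 at 3 µM (adjusted p = 0.930). *ITGA3* and *ITGA7*, other laminin receptor subunits, lay below the filter. *ITGA7* had 6.09 to 7.19 in the 6 arrays of Aska-SS and Yamato-SS and 3.60 to 4.42 in the 6 arrays of SYO-1 and Fuji. *ITGB4*, the partner of alpha 6 in hemidesmosomes, was 4.15 to 6.74.

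The subunits of RGD receptors were not all even. The highest and the lowest line differed by 0.42 for *ITGA5*, 1.32 for *ITGAV* and 1.56 for *ITGB5*. For *ITGA8* and *ITGB8* the difference was 3.90 and 4.22. *ITGA5*, the fibronectin receptor subunit, had 7.88 to 8.61 in all 12 arrays and changed by -0.21 at 3 µM (adjusted p = 0.322). *ITGA8*, which binds nephronectin, had 7.07, 7.27 and 8.45 at 0, 0.3 and 3 µM in Aska-SS, 7.59, 8.59 and 8.47 in Yamato-SS, 8.86, 9.02 and 8.81 in SYO-1, and 6.44, 3.66 and 4.91 in Fuji. It moved up in Aska-SS and Yamato-SS and not in SYO-1 and Fuji. The leukocyte and platelet subunits *ITGAL*, *ITGAM*, *ITGAX*, *ITGAD*, *ITGA2B* and *ITGB2* all lay below the filter, and *ITGB2*, the common beta subunit of leukocyte integrins, was at the floor in 7 of 12 arrays. *ITGB8* lay below the filter with 7.59 to 8.23 in Yamato-SS and at most 6.14 in the other lines. The 15 members below the filter had mean signals of 3.84 to 5.70, and 12 of them reached the floor in at least 1 array, so no change of theirs was tested.

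**Figure D3:**
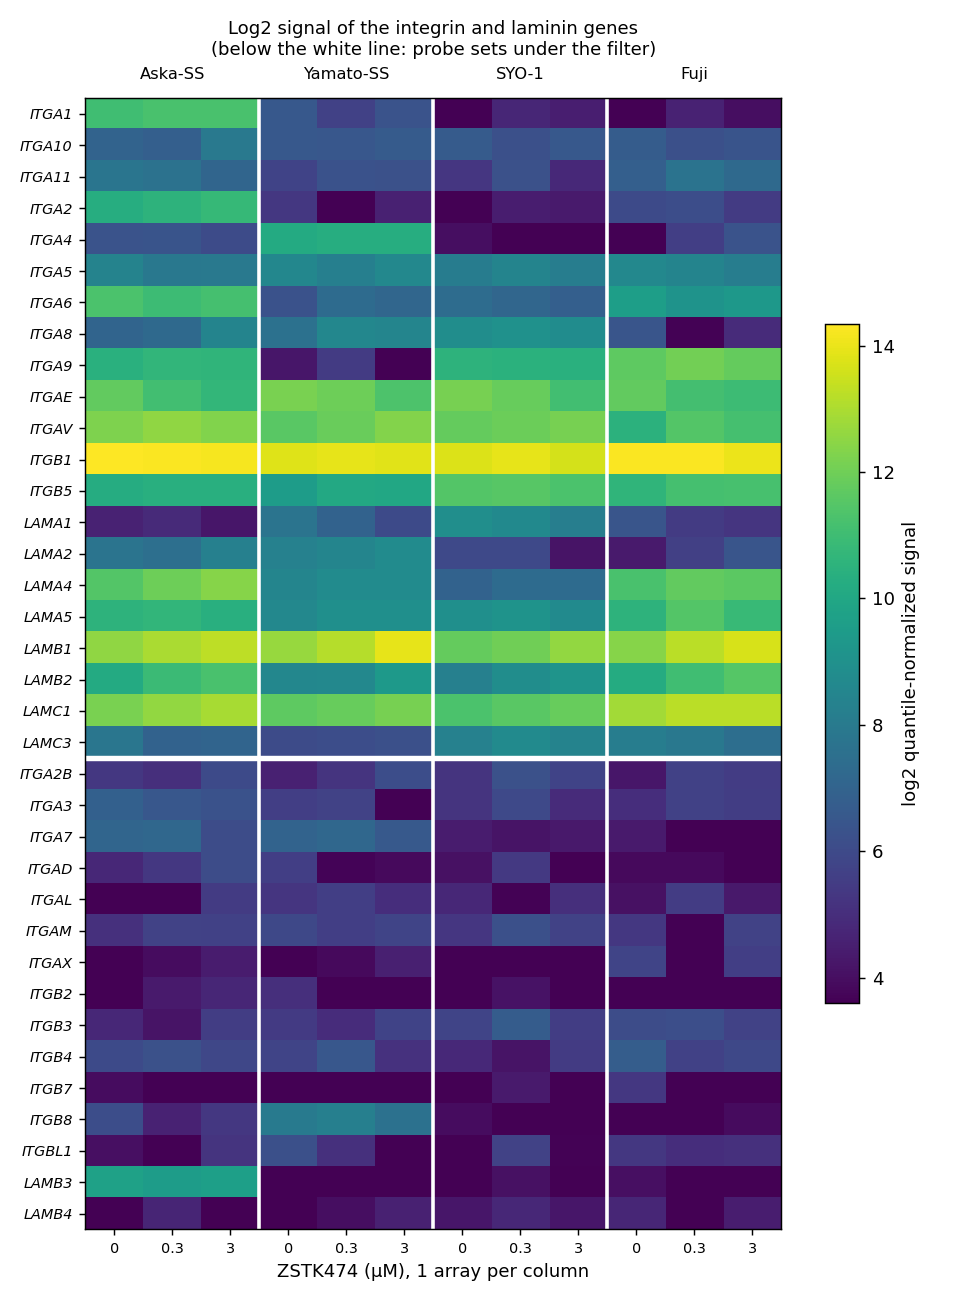
Log2 quantile-normalized signal of the 36 members (rows) in the 12 arrays (columns, grouped by cell line and ordered by dose); colors run from the floor of 3.60 (dark) to 14.34 (yellow), and genes under the white line lay below the filter. *ITGA1*, *ITGA2* and *LAMB3* are bright in Aska-SS only and *ITGA4* in Yamato-SS, while *ITGA9* is dark in Yamato-SS; colors of different genes come from different probe sets and give no order between genes.

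**Figure D4:**
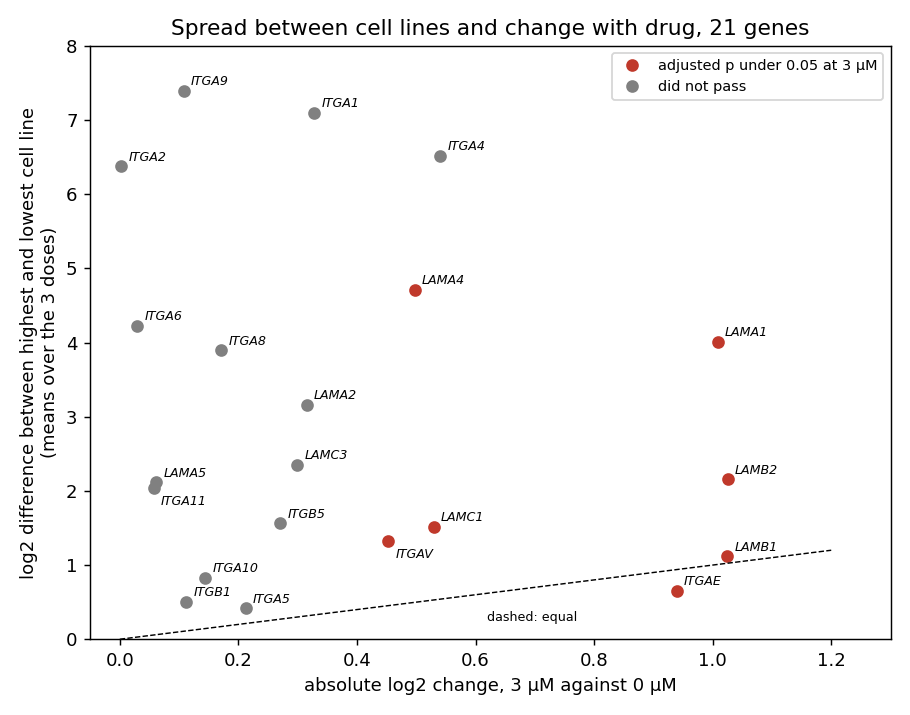
Difference between the highest and the lowest cell line (vertical axis, log2, means over 3 doses) against the absolute change at 3 µM against 0 µM (horizontal axis, log2) for the 21 members above the filter, red where the change passed. *ITGAE* is the 1 gene below the dashed line of equality, and *ITGA9*, *ITGA1*, *ITGA4* and *ITGA2* combine line differences above 6 with changes that did not pass; *ITGA1*, *ITGA2* and *ITGA4* lay above the filter only through 1 line.

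The change at 3 µM was also set against the fusion gene of the lines, SS18-SSX2 minus SS18-SSX1. With 2 lines of each, fusion gene and cell line cannot be told apart. Of the 21 members 0 passed in limma, as did 0% of all genes, and 1 member and 362 of 12132 genes had an unadjusted p under 0.05. That member was *ITGA8*, with changes of -0.05 in SYO-1 and -1.53 in Fuji against 1.39 in Aska-SS and 0.88 in Yamato-SS, a difference of -1.92 (95% interval -3.24 to -0.61, adjusted p = 0.996). A second *ITGA8* probe set above the filter changed by 0.71 at 3 µM and was higher in 3 of 4 lines, so at least 1 line of SS18-SSX2 was higher there. For *LAMB1* the difference was 0.02 (interval -0.59 to 0.64), for *LAMB2* 0.13 (-0.55 to 0.81) and for *ITGAE* 0.04 (-0.49 to 0.56), so that differences of over 0.81 between the fusion genes lie outside the intervals of these 3 genes.

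Genes that work with the members were counted from 4 lists. Of 17 basement membrane partners of laminin above the filter, 3 rose and 1 fell at 3 µM (23.5%, against 43.7% of all genes), with a median change of 0.22 (0.01 over all genes). *COL4A5*, a chain of the collagen IV network, rose by 0.63 (standard error 0.16, limma adjusted p = 0.0070), and *NID1*, which links laminin to that network, by 0.31 (adjusted p = 0.0097). *SPARC*, a matrix-binding glycoprotein, rose by 0.34 in the fit and in 3 of 4 lines (adjusted p = 0.0130), whereas *NID2*, the relative of *NID1*, fell by 0.44 and in 3 of 4 lines (adjusted p = 0.0137). The main collagen IV chains *COL4A1* and *COL4A2* changed by -0.02 and 0.22 and did not pass.

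Of 15 other integrin ligands, 2 rose and 0 fell at 3 µM (13.3%, against 43.7% of all genes). Their median change was -0.11, and it was 0.15 without Fuji and 0.04 without SYO-1. *FBN1*, the fibrillin of elastic microfibrils, rose by 0.78 (standard error 0.13, limma adjusted p = 0.00053) and *FN1*, fibronectin, by 0.44 (standard error 0.09, adjusted p = 0.0021), each in 4 of 4 lines, and both also rose at 0.3 µM. *TNC*, tenascin C, changed by -0.45 (adjusted p = 0.0810) and *CCN2*, a matricellular protein, by -0.71 (adjusted p = 0.0991).

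Inside the cell, 4 of 29 focal adhesion genes rose and 8 fell at 3 µM (41.4%, median change -0.04), close to the 43.7% of all genes. *TGFB1I1*, the paxillin relative HIC-5, rose by 1.34 (standard error 0.13, limma adjusted p = 2e-05). *CSRP1*, an actin-bundling LIM protein, fell by 0.93, *RSU1*, a partner of the ILK complex, by 0.52, and *ITGB1BP1*, which binds the beta 1 tail and competes with talin, by 0.48, each in 4 of 4 lines. Focal adhesion kinase (*PTK2*, 0.14), *ILK* (-0.17) and *TLN1* (-0.03) did not pass. Of 7 hemidesmosome and tetraspanin genes, 2 rose and 2 fell (median change -0.01). *DST*, a linker of integrins to the cytoskeleton, rose by 0.57 (adjusted p = 0.00040) and *CD81* by 0.21, while *CD151*, the tetraspanin partner of laminin-binding integrins, fell by 0.45 (adjusted p = 0.0017) and *CD82* by 1.10 in the fit and in 3 of 4 lines. These lists show directions gene by gene, with medians within 0.22 of 0.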

How the data were processed

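RNA of 4 SS cell lines at 3 doses was hybridised to 12 GeneChip arrays. The deposited values are linear signal intensities that the authors made with MAS5, with a 2% trimmed mean of 500.1 on each array. The methods name quantile normalization in GeneSpring, but medians of the deposited intensities were 71.0 to 85.3 at 3 µM and 60.1 to 70.6 at 0 µM, so it was applied here. Of 54675 probe sets, 62 are controls, 41097 have 1 gene symbol, 1801 several and 11777 none in the platform annotation. Genes whose probe sets carry several symbols were not named.

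Signals under the 20th percentile (12.1) were set to it, log2 was taken, probe sets with a mean above the median (6.03) were kept, and the brightest stood for each gene. Tests used R 4.3.3 and limma 3.58.1 (trend, cell line as a block, dose as a factor, all 12 arrays; for the fusion gene, 8 arrays at 0 and 3 µM), with Benjamini-Hochberg adjustment over 12132 genes. On simulated data with 200 changed genes, the fit recovered 36% of changes of 0.5, 76% of 1, 86% of 1.5 and 90% of 2. Of its calls there, 4% were unchanged genes. In the data 5304 genes passed at 3 µM, so these shares need not hold for them. Arrays are paired by cell line: after each dose's mean was taken out, arrays of a line correlated at r = 0.788 to 0.907. Values in every array were given for members that passed at 3 µM, for the brightest members and for those that differed by line, the last chosen after their values were seen. From each list the 4 genes with the smallest adjusted p were named, with *PTK2*, *ILK*, *TLN1*, *COL4A1* and *COL4A2* added afterwards. The members and lists were chosen with earlier results of these data known. The number of arrays limits the precision, p-values rest on the spread between cell lines, and proteins were not measured. The alternatives were no quantile normalization, a pseudocount of 16, other floors and filters, the mean of the probe sets, no block, array weights, unmoderated variances, the arrays of only the doses compared and each line left out.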

Additional observations from a re-analysis of the deposited data

Results flagged for a closer look

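Of 129 groups of 4 cell lines (36 members at 3 doses and the changes at 3 µM of the 21 above the filter), 14 held a cell line that stood far from the other 3, with a gap above Dixon's critical value. Chance marks about 1 in 20 groups of freely varying values. That rate does not apply to 4 of the 14 (*ITGAX*, *ITGB7*, *ITGB2* at 3 µM and *LAMB3* at 3 µM), where the other 3 lines were all at the floor and any value above it is marked, and other groups also hold values set to the floor. Aska-SS stood high for *LAMB3* at 0, 0.3 and 3 µM (9.74, 9.52 and 9.67), for *ITGA1* at 0.3 µM (11.25), for *ITGA2* at 3 µM (10.78), and, near the floor, for *ITGAD* (6.11) and *ITGB2* (4.74) at 3 µM. Yamato-SS stood low for *ITGA9* at 3 µM (3.60) and 0 µM (4.26), and high for *ITGB2* at 0 µM (5.06). Fuji stood low for *ITGA8* at 3 µM (4.91), high for *ITGAX* at 0 µM (5.79), and apart for the change of *ITGA4* at 3 µM (2.76). SYO-1 stood high for *ITGB7* at 0.3 µM (4.38).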

How the results depend on the processing

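Of 221 values under an alternative, 185 kept their call, kept a count within 1.5 times or moved by less than the spread between lines, 15 lost the call and 21 moved further. No tested change of a named member turned its sign, but 8 of 56 list medians did. The changes at 3 µM were 0.92 to 1.11 for *LAMB1*, 0.93 to 1.10 for *LAMB2*, 0.36 to 0.59 for *LAMC1* and -0.99 to -0.91 for *ITGAE*, and each passed in all but the fit with no replicate block. Without that block, which drops the pairing by line, 0 members passed in each of the 3 dose comparisons, with adjusted p of 0.0573 for *ITGAE*, 0.130 for *LAMB1* and 0.577 to 0.960 for the other 5 (3.16% of all genes passed at 3 µM). *ITGAV* also lost its call with no filter (adjusted p = 0.0848) and no variance moderation (0.0939), and *LAMA1* with array weights (-0.86, 0.0666); *LAMA1* was not tested with the filter at the 65th percentile. Leaving out each line gave 5 to 8 members at 3 µM, 0 to 1 at 0.3 µM and 0 to 3 between 0.3 and 3 µM. Of all genes, 35.3% to 40.2%, 0.00828% to 2.99% and 4.89% to 12.1% passed in these fits. At 0.3 µM, 0 members passed with no filter (0.501% of all genes), 0 with no variance moderation (0.313%) and 3 with the mean of the probe sets (5.42%). Between 0.3 and 3 µM, 0 passed with no variance moderation (6.84% of all genes) and 5 with array weights (20.5%). The median of the focal adhesion genes was 0.091 without quantile normalization, which moved the median of all genes to 0.09 and the share of rises among calls to 57.1% (51.7% with it), and -0.14 with the mean of the probe sets. That of the basement membrane partners was 0.079 with the 65th percentile filter, 0.079 with the mean of the probe sets and 0.092 to 0.21 with a line left out (0.092 without Fuji). That of the ligands was -0.16 to 0.15 with a line left out (0.15 without Fuji), and it was 0.042 without SYO-1 and 0.027 without quantile normalization. That of the hemidesmosome and tetraspanin genes was -0.23 with no filter, 0.097 with the 65th percentile filter, 0.017 with the mean of the probe sets, 0.093 without Aska-SS and 0.019 without SYO-1. Medians this close to 0 have no settled direction. The difference between fusion genes gave 0 members in all 13 alternatives. Signals near the floor have no order, which limits the 15 dim members.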
